A study of Mus musculus with 586 samples.

Results

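Pou5f1 encodes OCT4, a transcription factor of the POU family that is a defining regulator of pluripotent cells. The gene was followed here by name, as the row Pou5f1, in all 18 deposited expression tables, and it is 1 of the 23361 genes they list. The study profiled mouse embryos around implantation and gastrulation by Geo-seq, in which small groups of cells are cut by laser from known positions of frozen sections and each group is sequenced as a small bulk RNA library. The tables used here hold 473 libraries from 18 embryos: 22 libraries (2 embryos) at embryonic day E5.5, 22 (2 embryos) at E6.0, 109 (6 embryos) at E6.5, 101 (2 embryos) at E7.0 and 219 (6 embryos) at E7.5. All embryos carry the strain label C57BL/6, and the labels name neither an engineered allele nor a treatment for any of them.

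A sample's label gives the section number, with 1 the most distal, and a region code. The labels do not spell out the codes, and the reading used here follows the atlas that its authors published. Anterior epiblast is A and posterior epiblast is P, which from E7.0 on takes in the primitive streak. L and R are the left and right lateral epiblast, divided into L1, L2, R1 and R2 in the middle sections of E7.5 embryo 3. M, MA and MP are mesoderm, EA and EP are endoderm, and VE is visceral endoderm. Endoderm was sampled in embryos 5 and 6 at E6.5, in both embryos at E7.0 and in embryos 5 and 6 at E7.5. Mesoderm was sampled in both embryos at E7.0 (M) and in embryos 5 and 6 at E7.5 (MA and MP), and VE in 1 embryo at E6.0. The codes M1, M2, E1 and E2 of E7.5 embryo 4 have no certain reading, so their values are given without a comparison of germ layers. At E7.5 embryos 1 and 2 have A libraries only.

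OCT4 binds DNA together with SOX2 and keeps the inner cell mass and the epiblast pluripotent. In the mouse embryo the gene is active throughout the early epiblast, it is then switched off as cells form endoderm, mesoderm and neural ectoderm, and it stays active in primordial germ cells. Its upstream region holds a distal and a proximal enhancer and a short promoter without a TATA box, which SP1 and nuclear receptors bind, among them NR6A1 (GCNF), a repressor of the gene in cells that leave pluripotency.

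The gene lies at chr17:35506018-35510772 on the plus strand of GRCm38, in the GENCODE annotation used for lengths, with 6 transcripts and 5 exons in the first of them. An antisense gene, Gm19553, at chr17:35509077-35510551, overlaps its body, and the sources used here do not say whether reads were counted by strand. The genome also carries processed copies of Pou5f1, with which reads can be shared. The copy that the tables list, Gm5712, was above 0 in 3 libraries, with a maximum of 2.20 FPKM. The promoter is shown because it is the stretch through which regulators treated further on are known to act. It is the RefSeq sequence of GRCm38.p6, plus strand, chr17:35505782-35506031, 250 bases. Capitals mark AGGTCA and TCAAGG, the letters of nuclear receptor motifs, and GGGCGG, the core of an SP1 motif, each searched on both strands.
Pou5f1 promoter: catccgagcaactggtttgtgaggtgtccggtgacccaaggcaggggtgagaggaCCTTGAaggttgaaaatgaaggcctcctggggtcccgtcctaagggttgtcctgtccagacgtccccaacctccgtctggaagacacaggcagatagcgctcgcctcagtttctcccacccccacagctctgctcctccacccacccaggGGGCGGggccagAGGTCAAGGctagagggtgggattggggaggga
The capitals AGGTCAAGG hold AGGTCA and TCAAGG in overlap, CCTTGA is TCAAGG on the minus strand, and GGGCGG stands 6 bases before AGGTCAAGG. AGGTCA is found in 14.0% of the 32851 mouse promoter windows of the same length, TCAAGG in 12.5% and GGGCGG in 32.7%. These matches describe letters only.

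Values are FPKM (fragments per kilobase of transcript per 1000000 mapped fragments) as deposited. FPKM sums ran between 53064 and 1806706 per library, the number of genes at 1 FPKM or more between 2683 and 11319 with a median of 8949, and 22 libraries had fewer than 5000 such genes. The tables give no read counts. A rough depth from the smallest steps of low genes put the embryo medians between 2010000 and 8510000 reads, at which 1 read of Pou5f1 is worth about 0.26 FPKM in the median library. Pou5f1 was at 1 FPKM or more in 460 of the 473 libraries and listed at 0 in 10, of which 5 are E1 or E2 libraries and the other 5 EA or EP. In 4 libraries of E7.5 a single gene held over 50% of the FPKM sum, among them P of section 1 of embryo 6 and R of section 2 of embryo 3, and without these 4 no call on Pou5f1 changed. A pair of epiblast libraries had the lowest Pou5f1 of their regions and are called the 2 libraries that stand apart. P of section 5 of E6.0 embryo 1 had 2.03 FPKM of Pou5f1, and its sum over 20 other pluripotency genes was 138 per 1000000 of the library total, while the sum over maternal decidua and blood genes was 6954 per 1000000. A of section 3 of E5.5 embryo 1 had 1.5 FPKM and reached 1 FPKM for 3725 genes, with a pluripotency sum of 1972 per 1000000, but P of the same section reached only 3582 genes, so that this A library was set apart by its Pou5f1 value. Results that rest on either are also given without them. The 2 were picked after their Pou5f1 values were seen, so a p without them describes sensitivity only. A difference in a bulk library can come from fewer cells that express a gene or from less RNA per cell, and these cannot be told apart here.

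In the epiblast Pou5f1 was abundant at every stage, and the highest regional mean of each stage was in P or A. In P the mean over embryos was 140 ± 33.3 FPKM at E5.5 (SD, n = 2), 268 ± 99.5 at E6.0 (n = 2), 319 ± 132 at E6.5 (n = 6), 336 ± 210 at E7.0 (n = 2) and 275 ± 115 at E7.5 (n = 4). In A it was 78.1 ± 5.35 FPKM at E5.5 (SD, n = 2), 298 ± 75.0 at E6.0 (n = 2), 327 ± 127 at E6.5 (n = 6), 320 ± 195 at E7.0 (n = 2) and 140 ± 77.3 at E7.5 (n = 6). The means of P and A were thus close to each other at E6.0, E6.5 and E7.0, while at E5.5 and E7.5 the mean of P was the higher. The 2 E7.0 embryos differed from each other more than their regions did, with 188 and 485 FPKM in P and 182 and 458 FPKM in A.

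Outside the epiblast the means were lower than in P of the same stage. Mesoderm had 143 ± 97.3 FPKM in M at E7.0, and 127 ± 36.9 in MP and 61.6 ± 41.2 in MA at E7.5 (SD, n = 2 each). Endoderm had 34.6 ± 36.1 FPKM in EP and 12.3 ± 4.07 in EA at E6.5, 64.4 ± 57.3 in EP and 48.6 ± 40.3 in EA at E7.0, and 45.8 ± 15.0 in EP and 24.9 ± 15.5 in EA at E7.5 (SD, n = 2 each). In both E7.5 embryos with all 6 regions P had the highest mean and EA the lowest. Between them the order in FPKM changed from embryo to embryo. It was MP, A, EP and MA descending in embryo 5 and A, MP, MA and EP descending in embryo 6. With libraries rescaled to a common sum it was A, MP, MA and EP in both embryos, so the change depends on the scaling. In each embryo A rests on 3 libraries, and MP, MA and EP on 9 each. The differences between A and MP and between MA and EP were not tested.

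**Figure D1:**
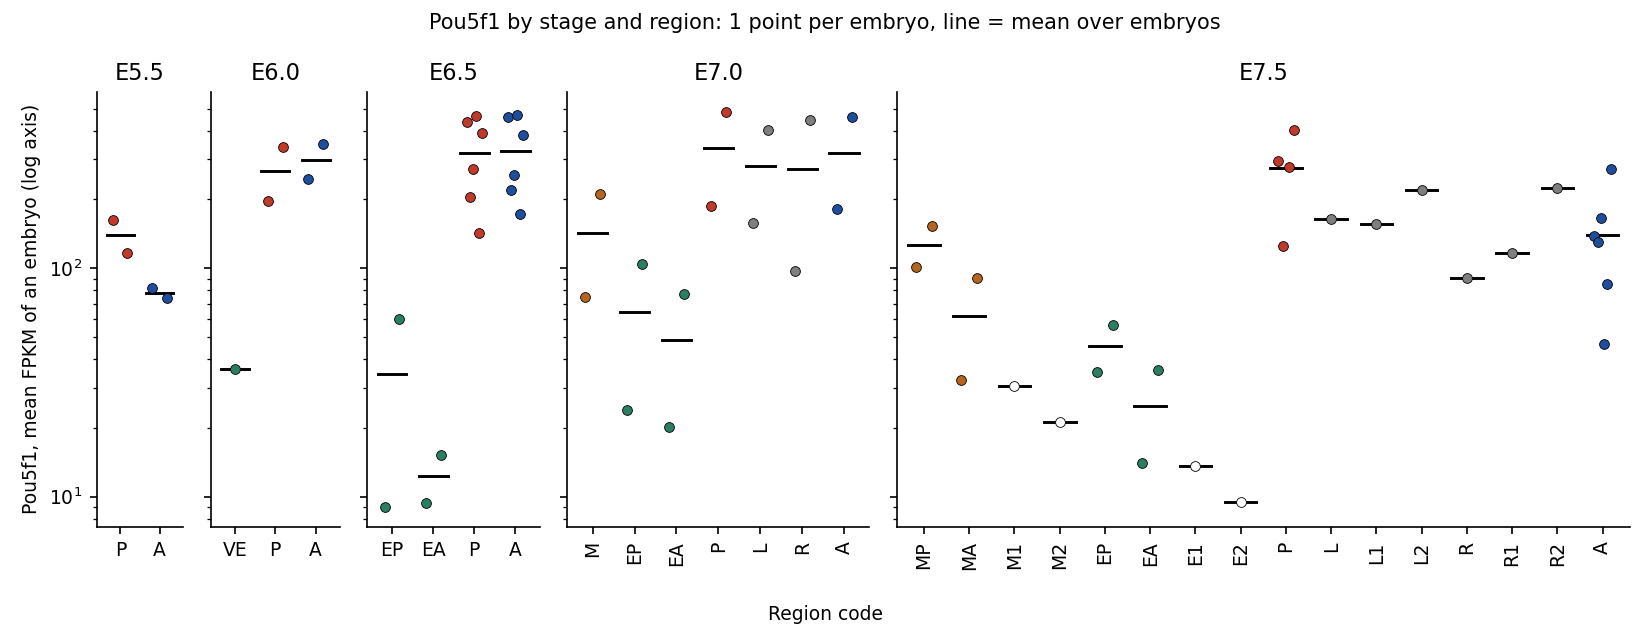
Pou5f1 in mean FPKM of each embryo (log axis) by stage and region code, 1 point per embryo, with lines at the mean over embryos and white points for M1, M2, E1 and E2 of E7.5 embryo 4. At E7.0 the points lie between 20.1 and 105 FPKM in endoderm, at 74.5 and 212 FPKM in mesoderm and at 188 and 485 FPKM in P.

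Between stages the level was compared on libraries rescaled to a common sum of 1000000, as embryo means of log2(value + 1), with limma over all genes. FPKM were computed library by library and each embryo has a table of its own, so such levels cross tables. In A the level at E6.0 was higher than at E5.5 by 2.12 ± 0.53 on the log2 scale (SE; limma, adjusted p = 0.0077, 21.4% of genes called). The 2 embryos had 436 and 656 per 1000000 at E6.0, against 230 and 149 per 1000000 at E5.5, and the groups do not overlap. All genes had a median shift of 0.76 in the same comparison, and without the 2 libraries that stand apart the difference was 1.6 (adjusted p = 0.0488). Without E6.0 embryo 2 it was 1.82 and not called (adjusted p = 0.0894), and with the median over sections it was 1.27 (adjusted p = 0.101). In A at E7.5 the 6 embryos had 163, 157, 406, 261, 290 and 535 per 1000000, against 524, 269, 428, 903, 628 and 786 per 1000000 in the 6 embryos at E6.5. The groups overlap, and the difference of -1.05 ± 0.31 missed the threshold over all genes (limma, adjusted p = 0.0728, 2.57% called), with an exact two-sided permutation p of 0.0238 for the gene by itself. Without E6.5 embryo 2 or without E7.5 embryo 6 it was -1.26 or -1.24 and called. In P the 4 embryos at E7.5 had 633, 462, 648 and 687 per 1000000, against 482, 261, 403, 905, 593 and 772 per 1000000 at E6.5. Every E7.5 value lies inside the E6.5 range, and the difference was 0.16 ± 0.37 (limma, adjusted p = 0.826, 10.6% called). No other change between successive stages was called in A, P, endoderm or mesoderm, and a p that misses the threshold does not show that levels were equal.

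The contrast of posterior with anterior epiblast was made inside each embryo, section by section, and averaged over sections. It was positive at E5.5 and at E7.5 and not called between them. At E5.5 embryo 1 had 280, 94.5, 150, 129 and 163 FPKM in P of sections 2 to 6, against 33.2, 1.5, 115, 123 and 136 FPKM in A. Embryo 2 had 23.9, 95.0, 140, 34.99 and 286 FPKM in P of its 5 sections, against 14.4, 141, 71.9, 109 and 35.5 FPKM in A. The P value was the higher in 8 of 10 sections, and the ranges overlap. The fitted difference was 1.14 ± 0.29 (SE, n = 2 embryos with 1.80 and 0.49; limma, adjusted p = 0.0123, 15.2% of genes called). All stages were in 1 fit with 1 shared spread per gene, so this SE and p do not measure the spread between these 2 embryos. Without the 2 libraries that stand apart the difference was 0.71 ± 0.16 (limma, adjusted p = 0.0055). As that choice followed the Pou5f1 values themselves, this p lends the call no support. Without embryo 1, which leaves 1 embryo, the difference was 0.49. With E5.5 fitted by itself the value of 1.14 was not called (adjusted p = 0.320).

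At E6.0 the difference was -0.80 ± 0.29 (n = 2 embryos with -1.54 and -0.06; limma, adjusted p = 0.249, 0% called). Embryo 1 had 160, 317, 311 and 2.03 FPKM in P of sections 2 to 5, against 283, 192, 228 and 277 FPKM in A, and embryo 2 averaged 338 FPKM in P, against 351 FPKM in A. Embryo 1 alone, without embryo 2, would be called (adjusted p = 0.0105). Without the 2 libraries that stand apart the E6.0 difference was 0.03 (adjusted p = 0.997). At E6.5 the 6 embryos averaged 437, 205, 272, 464, 143 and 393 FPKM in P, against 461, 220, 257, 469, 173 and 382 FPKM in A. The ranges are nearly the same. The embryos had differences of -0.09, -0.10, 0.08, -0.03, -0.33 and 0.05, and P was the higher in 12 of 37 sections. The mean was -0.07 ± 0.16 (limma, adjusted p = 1.0, 0.74% called). At E7.0 the 2 embryos had 0.18 and 0.16, with P higher in 6 of 7 sections, and the mean of 0.17 ± 0.29 was not called (limma, adjusted p = 0.908, 3% called).

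At E7.5 Pou5f1 was higher in P in all 4 embryos that hold both regions. In embryo 3, P of sections 1 to 10 had 103, 222, 176, 294, 380, 440, 390, 345, 253 and 358 FPKM, against 104, 179, 127, 147, 234, 227, 218, 122, 116 and 180 FPKM in A. Sections 3, 6 and 9 of embryo 4 had 124, 75.8 and 85.2 FPKM in P, against 25.8, 33.2 and 81.3 FPKM in A. In embryo 5 the same sections had 214, 218 and 190 FPKM in P, against 100.9, 49.6 and 106 FPKM in A, and in embryo 6 they had 465, 400 and 305 FPKM in P, against 405, 251 and 161 FPKM in A. P was the higher in 18 of 19 sections, the exception being the most distal section of embryo 3, and the ranges of P and A do not overlap in embryo 5 and overlap in the other embryos. The embryo differences were 0.78, 1.15, 1.34 and 0.60, with a mean of 0.97 ± 0.20 (SE, n = 4; limma, adjusted p = 0.0033, 14.1% of genes called and 10.7% called higher). An exact sign-flip permutation test over 4 embryos gives p = 0.125, the smallest it can give. With sections 3, 6 and 9 only, a choice made after seeing the data, the mean was 0.98 (adjusted p = 0.0028). With the E7.5 embryos of the shallower tables only, 4 to 6, it was 1.03 and missed the threshold (adjusted p = 0.0578).

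The change in the contrast between E6.5 and E7.5 was 1.04 ± 0.26 (limma, adjusted p = 0.0279, 4.1% called and 3.16% called higher). It was no longer called when any of 6 embryos was left out, E6.5 embryos 1, 2, 4 and 5 and E7.5 embryos 4 and 5, with values between 0.91 and 1.16 and adjusted p up to 0.118. It also missed the threshold with a pseudocount of 0.1 (1.05, adjusted p = 0.0552) and with no filter on low genes (adjusted p = 0.0715). The sum over 12 genes of the primitive streak had medians of 431 per 1000000 in P and 57.9 in A at E6.5. At E7.0 these were 1771 in P and 19.7 in A. The streak sum was thus higher in P at stages where P minus A of Pou5f1 was not called. At E7.5 it ran between 607 and 2853 per 1000000 in P, against 3.10 to 1853 in A, with medians of 1830 and 21.0. Each of the 12 reached 1 FPKM in some library of both regions at E7.5. T, the streak regulator brachyury, averaged 496 ± 208 FPKM in P (SD, n = 4) and 41.8 ± 52.4 FPKM in A (n = 6). Their part in the Pou5f1 difference was not tested.

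**Figure D2:**
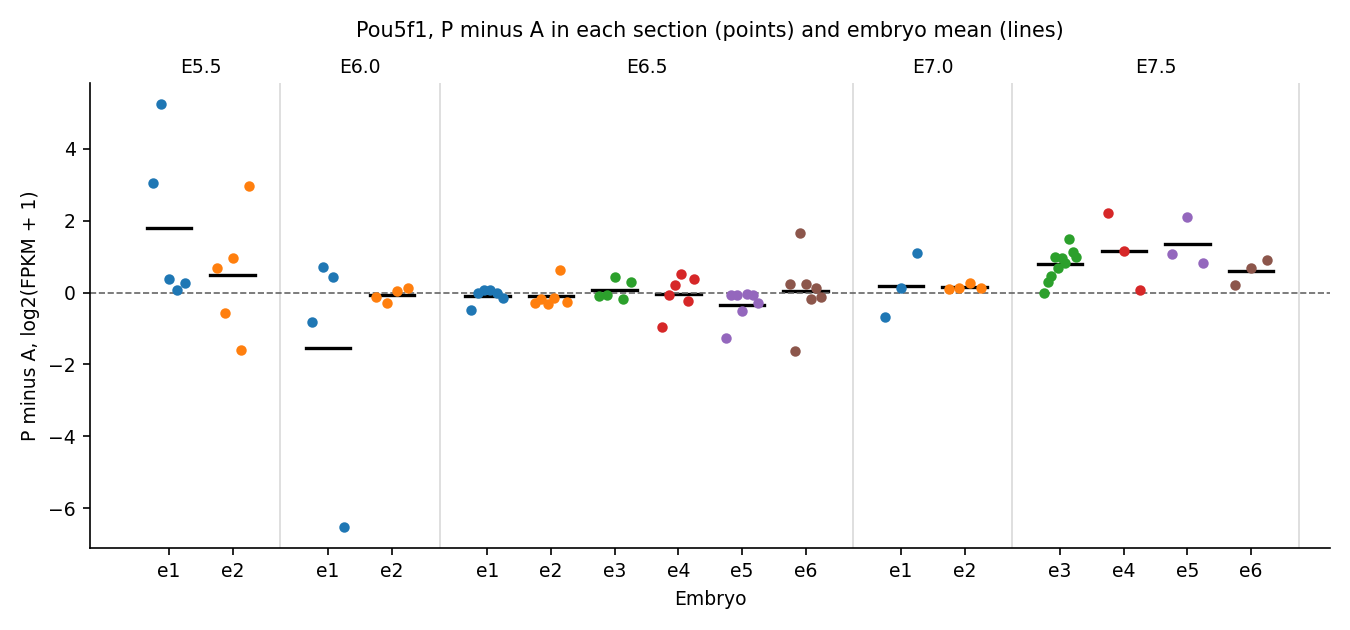
Pou5f1, P minus A on the log2(FPKM + 1) scale, in each section (points) and as the mean of each embryo (lines), by stage. The E7.5 embryo means of 0.78, 1.15, 1.34 and 0.60 lie above 0, and the 6 E6.5 means lie between -0.33 and 0.08.

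The lateral epiblast was compared with its neighbours in 3 embryos. At E7.0 embryos 1 and 2 averaged 158 and 402 FPKM in L and 97.5 and 445 FPKM in R, against 182 and 458 FPKM in A. Each lateral mean lay below the A mean of its embryo. Lateral minus A was -0.34 ± 0.11 (n = 2 embryos with -0.45 and -0.23; limma, adjusted p = 0.558, 0% called), and P minus lateral was 0.53 ± 0.15 (0.66 and 0.40; adjusted p = 0.218, 0.0495% called). Neither was called, although both embryos had the same sign. In E7.5 embryo 3 P minus lateral was 1.00 and lateral minus A was -0.12 (-0.03 without R of section 2, led by a single gene), values of 1 embryo that have no test of their own (0.00989% of genes called for P minus lateral in the shared fit). The divided lateral regions of that embryo averaged 220 FPKM in L2 and 156 in L1, and 225 FPKM in R2 and 117 in R1. L2 was above L1 in 7 of 7 sections and R2 above R1 in 5 of 7. The streak genes had the same order, with medians of 183 per 1000000 in L2 and 24.7 in L1 and of 77.9 in R2 and 15.3 in R1. Anterior epiblast and neural genes had the reverse order, with 33.1 in L2 and 109 in L1 and with 57.2 in R2 and 138 in R1. The part of either list was not tested. The labels do not say which of the divided regions lies closer to P.

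Endoderm held far less Pou5f1 than the epiblast of the same embryos. The means given next are over all libraries of a region, and at E7.0 and E7.5 A has fewer libraries than P, EP or EA. At E6.5 embryo 5 averaged 9.02 FPKM in EP and 9.41 in EA, against 143 FPKM in P and 173 in A, and embryo 6 averaged 60.1 FPKM in EP and 15.2 in EA, against 393 FPKM in P and 382 in A. At E7.0 embryo 1 averaged 23.9 FPKM in EP and 20.1 in EA, against 188 FPKM in P and 182 in A, and embryo 2 averaged 105 FPKM in EP and 77.1 in EA, against 485 FPKM in P and 458 in A. At E7.5 embryo 5 averaged 35.1 FPKM in EP and 14.0 in EA, against 277 FPKM in P and 85.6 in A, and embryo 6 averaged 56.4 FPKM in EP and 35.9 in EA, against 404 FPKM in P and 272 in A. In each of these embryos both endoderm means lay below both epiblast means. Section by section EP was below P in 14 of 14, 20 of 20 and 18 of 18 sections at E6.5, E7.0 and E7.5, and EA was below A in 14 of 14, 6 of 6 and 6 of 6.

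The contrast on the log2 scale used the sections that hold EP, EA, P and A. These were 7 in each embryo at E6.5 and 3 in each at E7.0 and E7.5. Endoderm minus epiblast was -4.57 ± 0.28 at E6.5 (n = 2 embryos with -4.88 and -4.26; limma, adjusted p = 1.08e-10, 65.8% of genes called and 61.9% called lower). It was -3.46 ± 0.28 at E7.0 (-3.92 and -3.01; adjusted p = 5.46e-09, 35.5% called and 27.1% lower) and -2.74 ± 0.28 at E7.5 (-2.52 and -2.96; adjusted p = 2.14e-07, 18.8% called and 10% lower), from limma in both. All stages were in 1 fit with 1 shared spread per gene, so these SE and p do not measure the spread between the 2 embryos of a stage. An exact sign-flip permutation test gives p = 0.5 at each stage, the smallest that 2 embryos can give. The median over all genes was -0.86, -0.36 and -0.16 at the 3 stages, and it was thus most negative at E6.5. The change in the Pou5f1 contrast between E6.5 and E7.5, 1.83 ± 0.39 (limma, adjusted p = 0.0017, 36.9% called), stands next to a median change of 0.78 over all genes. The Pou5f1 change also sets 7 sections per embryo against 3, and the part of this was not tested. When the libraries were rescaled to an equal sum, that change was 1.35 and not called (adjusted p = 0.115), and with no filter on low genes the value of 1.83 also missed the threshold (adjusted p = 0.0557).

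Few genes had a more negative difference than Pou5f1 in endoderm. Of 10307 genes tested, 4 did at E6.5, 3 at E7.0 and 7 at E7.5. Over the mean of stages, where Pou5f1 was at -3.59 ± 0.16 (limma, adjusted p = 9.06e-14, 68.7% called and 57.9% lower), they were Slc7a3, a transporter of cationic amino acids, Snrpn, the glycolytic enzyme gene Eno1 and Pim2, a kinase. Slc7a3 was below Pou5f1 at all 3 stages, with -4.67, -3.79 and -4.28.

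The endoderm libraries held the genes that define their label. Ttr, the transthyretin gene of visceral endoderm, averaged 360 ± 309 FPKM in endoderm at E6.5, 683 ± 40.3 at E7.0 and 652 ± 463 at E7.5 (SD, n = 2 each). The sum over 16 endoderm genes had medians of 6061 and 3243 per 1000000 in EP and EA at E6.5, against 468 and 535 per 1000000 in P and A. The same libraries carried more RNA of maternal decidua and blood genes, 8 of which were measured. Of the 8, 6 reached 1 FPKM in some EP library, 7 in some EA library and 6 in some P library of E7.0. Their sum at that stage ran between 1428 and 89943 per 1000000 in EP and between 1771 and 119753 in EA, against 9.13 to 1883 per 1000000 in P, and at E7.5 its medians were 4505 and 6513 per 1000000 in EP and EA, against 173 and 105 in P and A. The part of these genes in the Pou5f1 difference was not tested.

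VE, the visceral endoderm of E6.0 embryo 2, had 5.09, 29.98, 32.2 and 77.2 FPKM in sections 1 to 4, a mean of 36.1 FPKM from 1 embryo. It was below both P and A in 3 of 3 sections that hold them. EP minus EA was positive in 5 of 6 embryos but not called at any stage in the fit over all stages. It was 1.11 ± 0.44 at E6.5 (0.02 and 2.19; limma, adjusted p = 0.231, 0.217% called), 0.19 at E7.0 (adjusted p = 0.994, 0.296% called) and 0.89 at E7.5 (1.11 and 0.66; adjusted p = 1.0, 0.266% called). Without E6.5 embryo 5 the E6.5 value was 2.19 and called (adjusted p = 0.0024), and with E7.5 fitted by itself the E7.5 value of 0.89 was called (adjusted p = 1.12e-04). EP was above EA in 10 of 14, 13 of 20 and 15 of 18 sections.

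Mesoderm lay between endoderm and posterior epiblast. At E7.0 M averaged 74.5 and 212 FPKM in embryos 1 and 2, against 188 and 485 FPKM in P. At E7.5 embryos 5 and 6 averaged 101 and 153 FPKM in MP and 32.4 and 90.7 in MA, against 277 and 404 FPKM in P. M was below P in 20 of 20 sections at E7.0, and MP below P in 18 of 18 at E7.5. Mesoderm minus P was -1.35 ± 0.11 at E7.0 (-1.41 and -1.29; limma, adjusted p = 0.0045, 13.7% called and 11.9% lower) and -2.19 ± 0.11 at E7.5 (-2.36 and -2.01; adjusted p = 0.00025, 26.2% called and 23.6% lower). With no filter on low genes the E7.0 value was not called (adjusted p = 0.174). As in the endoderm contrast, the spread behind the SE and p is shared over stages, here and in mesoderm minus endoderm. It does not measure the spread between the 2 embryos of a stage. The median over all genes was -0.21 and -0.28 for mesoderm minus P. Against A the order was less even, since MA was below A in 6 of 6 sections and MP in 4 of 6.

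Mesoderm minus endoderm was 1.90 ± 0.21 at E7.0 (limma, adjusted p = 0.0029, 19.6% called) and 1.52 ± 0.21 at E7.5 (adjusted p = 0.0057, 15.1% called). Without E7.5 embryo 6 the E7.5 value was 1.45 and not called (adjusted p = 0.0545). Over the mean of stages it was 1.71 ± 0.15 (limma, adjusted p = 0.00046, 39.4% called). The 17 pluripotency genes that passed the filter there had a median of 0.47, beside 0.17 over all genes. M was above EP and above EA in 20 of 20 sections at E7.0, MP was above EP in 18 of 18 at E7.5, and MA above EA in 17 of 18. Mesoderm genes were high in these libraries, and in P as well, where the streak lies. The sum over 11 mesoderm genes had a median of 548 per 1000000 in M at E7.0, against 404 in P, and of 327 and 181 in MP and MA at E7.5, against 137 in P and 4.27 in A. Decidua and blood genes had medians of 742 per 1000000 in M at E7.0, against 111 in P, and of 987 and 926 in MP and MA at E7.5, against 173 in P. Their part in the Pou5f1 differences was not tested.

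Within the mesoderm of E7.5 Pou5f1 followed the same posterior to anterior order as in the epiblast. In embryo 5 sections 2 to 10 had 118, 157, 206, 74.7, 76.9, 62.3, 110, 63.3 and 39.5 FPKM in MP, against 37.1, 49.7, 58.3, 53.4, 30.2, 21.6, 19.2, 13.5 and 8.82 FPKM in MA. In embryo 6 they had 54.8, 232, 336, 184, 157, 64.6, 87.3, 118 and 145 FPKM in MP, against 22.1, 139, 181, 127, 118, 96.1, 61.9, 46.9 and 24.0 FPKM in MA. MP was the higher in 17 of 18 sections, all but section 7 of embryo 6, although the ranges of the whole regions overlap. MP minus MA was 1.26 ± 0.24 (n = 2 embryos with 1.67 and 0.84; limma, adjusted p = 1.20e-05, 3.44% of genes called). This SE and p lean on the spread of other genes more than on that between the 2 embryos. An exact sign-flip permutation test gives p = 0.5, the smallest that 2 embryos can give. With either embryo left out, no spread between embryos remains for a test. The streak genes had medians of 644 per 1000000 in MP and 191 in MA at E7.5, and their part was not tested. The call was lost with no filter on low genes (adjusted p = 0.742) and with the median over sections (1.19, adjusted p = 0.0534).

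The pieces of E7.5 embryo 4 whose codes have no certain reading were low in Pou5f1. M1 and M2 averaged 30.5 and 21.2 FPKM over 9 sections each and were below P in 9 of 9 sections, and E1 and E2 averaged 13.6 and 9.51 FPKM. P of the same embryo averaged 125 FPKM and A 46.8 FPKM.

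Along the distal to proximal axis slopes were fitted in P, in A at E5.5, E6.5 and E7.5, and in mesoderm, and none of Pou5f1 was called after E5.5. The slope is the log2 difference between the most proximal and the most distal section of a straight line through 1 embryo. In P it was 0.48 ± 0.29 at E6.5, positive in 6 of 6 embryos with an exact sign-flip permutation p of 0.0312, the smallest 6 embryos can give. Over all genes it was not called (limma, adjusted p = 0.291, 2.27% called), and the median slope of all genes was 0.37. In P it was 0.91 ± 0.50 at E5.5 (adjusted p = 0.241, 14% called), 0.11 at E7.0 (adjusted p = 1.0, 2.06% called) and 0.27 ± 0.35 at E7.5 (adjusted p = 0.693, 2.98% called), by the same limma fit. Without E5.5 embryo 1 the E5.5 slope in P was 2.26 and called (adjusted p = 0.0038). In A it was 2.35 ± 0.57 at E5.5 (3.86 and 0.85; limma, adjusted p = 0.0212, 7.4% called), 0.05 at E6.5 (0.0438% called) and -0.29 at E7.5 (4.15% called). Without the 2 libraries that stand apart the E5.5 slope in A was 0.85 and not called (adjusted p = 0.387).

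In M of E7.0 embryo 2 sections 2 to 11 had 282, 309, 307, 293, 208, 180, 158, 131, 98.9 and 157 FPKM. EP of the same sections had 179, 208, 211, 217, 60.6, 47.0, 69.6, 31.8, 19.6 and 4.23 FPKM. P of the same embryo ran between 302 and 630 FPKM, and both M and EP were higher in sections 2 to 5 than in any section further proximal. In EP of that embryo the streak genes summed to between 992 and 1611 per 1000000 in sections 2 to 5 and to between 195 and 826 in sections 6 to 11, and the endoderm genes to between 1787 and 3488 and to between 4019 and 19039. Their part in the course of Pou5f1 was not tested. In embryo 1 of the same stage M was lowest in its most distal section, at 21.7 FPKM, against a maximum of 105 FPKM in section 6. The mesoderm slope was -0.47 at E7.0 and -1.34 ± 0.66 at E7.5 (-1.99 and -0.69), with neither called (limma, adjusted p = 0.720 and 0.669, 1.77% and 1.67% called).

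**Figure D3:**
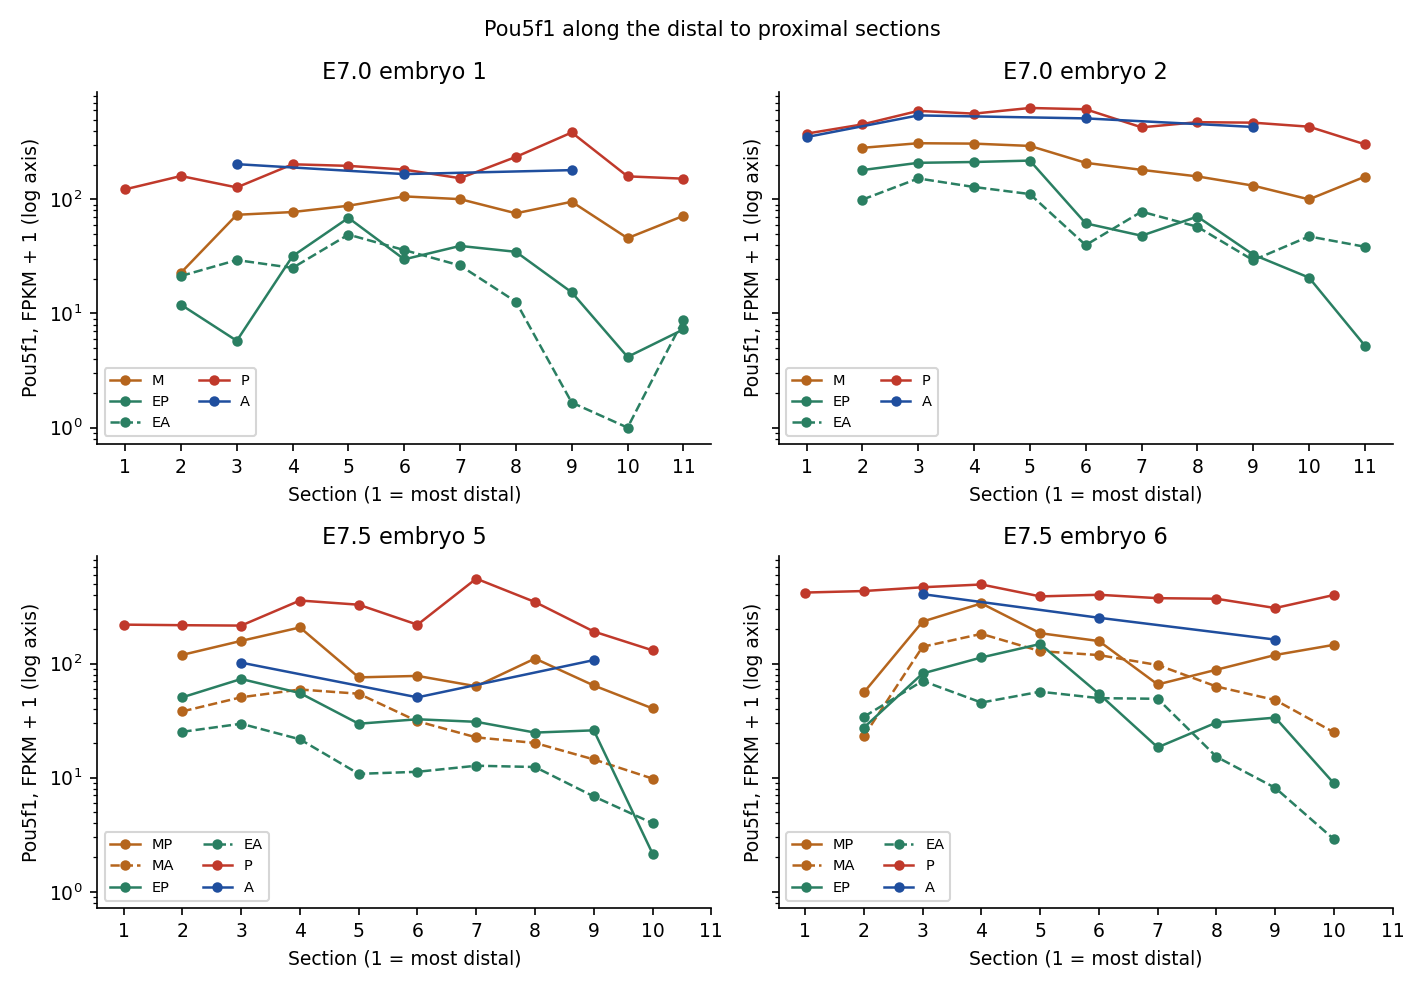
Pou5f1 as FPKM + 1 (log axis) against section number, 1 the most distal, in the 4 embryos of E7.0 and E7.5 with mesoderm and endoderm libraries; line styles separate anterior from posterior parts. In E7.0 embryo 2 P stays between 302 and 630 FPKM, while EP has 179 FPKM in section 2 and 4.23 FPKM in section 11.

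Most genes on a list of OCT4 partners and pluripotency genes were not called higher in P at E7.5, unlike Pou5f1. The list of 20 genes holds Sox2 and other core or primed pluripotency genes, and all 20 passed the filter on low values. In P minus A at E7.5, 2 were called higher and 9 lower (10.7% and 3.45% over all genes), with a median of -0.43 beside 0.15 over all genes. Higher were Tdgf1, a Nodal co-receptor (3.45), and Fgf4, a growth factor gene activated by OCT4 with SOX2 (2.56). The lower genes with the smallest p-values were Otx2, a homeobox factor of the anterior epiblast and brain (-4.10), Utf1, a chromatin-associated pluripotency factor (-4.01), Slc7a3 (-3.88) and Pou3f1 (-2.64). Sox2 was among the 9 lower genes (-2.22 ± 0.33; limma, adjusted p = 0.00014). It averaged 2.50 ± 0.74 FPKM in P (SD, n = 4) and 18.7 ± 6.75 FPKM in A (n = 6), while Pou5f1 averaged 275 ± 115 FPKM in P and 140 ± 77.3 FPKM in A. Nanog, another core factor, had a difference of -0.05 and was not called, with 17.1 ± 8.46 FPKM in P and 14.7 ± 9.09 FPKM in A.

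At E6.5, 3 of the 20 were called lower in P (0.141% over all genes), with a median of -0.19 beside -0.01 over all genes. They were Pou3f1 (-1.10), Utf1 (-1.07) and Slc7a3 (-1.03). Tdgf1 had 1.22 and was not called at that stage (limma, adjusted p = 0.357). At E7.0, 2 were higher and 6 lower (1.7% and 1.3% over all genes), with a median of -0.55 beside 0.05, and those higher were again Tdgf1 (3.93) and Fgf4 (2.22). Sox2 stood at -2.82 at E7.0, when Pou5f1 stood at 0.17.

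**Figure D4:**
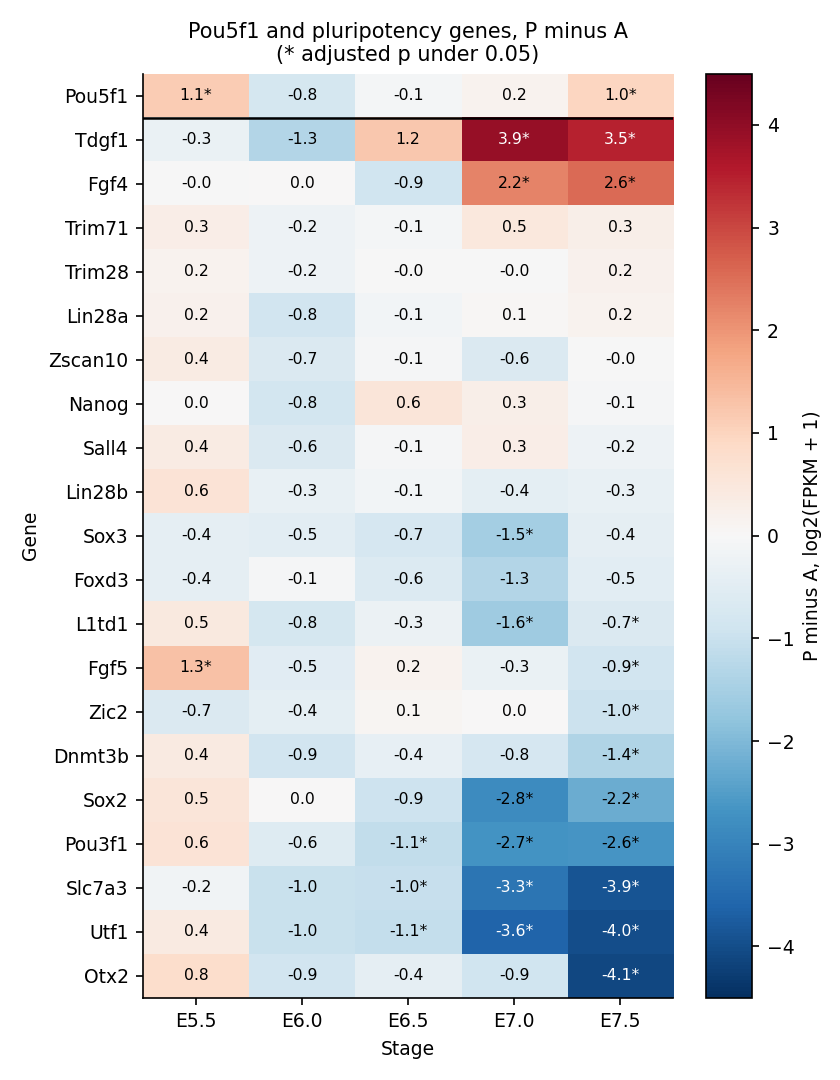
P minus A on the log2(FPKM + 1) scale for Pou5f1 (top row) and the 20 pluripotency genes, sorted by the E7.5 value, at 5 stages; stars mark an adjusted p under 0.05 in the limma fit. Pou5f1 at 0.97 and Sox2 at -2.22 have opposite signs at E7.5, and Nanog is near 0.

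In the endoderm 19 of the 20 were lower than in the epiblast over the mean of stages, as Pou5f1 was, and none higher, with a median of -1.44 beside -0.47 over all genes, of which 57.9% were called lower and 10.8% higher. The smallest p-values were those of Slc7a3 (-4.25), Utf1 (-2.46), Sox2 (-2.10) and the de novo DNA methyltransferase gene Dnmt3b (-1.86), each smaller in size than Pou5f1 at -3.59 except Slc7a3. Sizes of genes that differ in abundance are not directly comparable on this scale, which understates changes of low genes. In mesoderm minus P, where 18 passed the filter, 12 were lower and 1 higher over the mean of stages, with a median of -0.47 beside -0.24 (43.6% of all genes called, 39.6% lower and 3.95% higher). Pou5f1 stood at -1.77 ± 0.08 there (limma, adjusted p = 9.5e-05), Dnmt3b at -1.0, Slc7a3 at -1.38, Fgf4 at -1.68 and Tdgf1 at -0.95. In MP minus MA at E7.5 (1.63% of all genes higher and 1.81% lower), 2 of 18 were higher, Fgf4 (1.31) and Tdgf1 (1.12), and 5 were lower, Otx2 (-2.26), Utf1 (-1.16), Sox2 (-1.04), Slc7a3 (-0.96) and Fgf5 (-0.90).

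Genes of naive pluripotency, the state before implantation, were listed as well. Of 14 listed, 9 passed the filter of the endoderm comparison, and 5 of them were higher in endoderm over the mean of stages and 3 lower, beside 10.8% and 57.9% of all genes. The higher ones include the Krüppel-like factors Klf5 (1.41) and Klf4 (1.13), Fbxo15 (0.85) and Tbx3 (0.87). In P minus A at E7.5, 7 passed the filter, with Klf5 higher (2.15) and Nr0b1 lower (-1.04), beside 10.7% of all genes higher and 3.45% lower. Dppa5a, an RNA-binding protein gene of pluripotent cells, fell by 4.03 in A at E7.5 against E6.5 (limma, adjusted p = 3.2e-10), with 14.5 ± 8.72 FPKM at E7.5 and 270 ± 107 FPKM at E6.5 (SD, n = 6 each).

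Of 14 other POU genes listed, 3 passed the filter of P minus A. Pou3f1, also known as OCT6 and a gene of the anterior epiblast, was called lower in P at E6.5 (-1.10), E7.0 (-2.69) and E7.5 (-2.64), opposite in sign to Pou5f1 at E7.5. It averaged 0.411 ± 0.0705 FPKM in P (SD, n = 4) and 11.6 ± 5.72 FPKM in A (SD, n = 6) at E7.5. In the endoderm Pou3f1 was lower by its fitted difference of -1.74 over the mean of stages, and Pou2f1, which encodes the widely expressed OCT1, by -0.50.

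Among 21 genes known to act on the Pou5f1 gene, 18 passed the filter of P minus A, and at E7.5 1 was higher and 1 lower, beside 10.7% and 3.45% of all genes. Cdx2, a homeobox factor that represses Pou5f1 in the trophoblast lineage, was higher in P (4.27 ± 0.23; limma, adjusted p = 1.1e-09), with 30.5 ± 17.5 FPKM in P and 1.34 ± 1.4 FPKM in A, alongside the higher Pou5f1. The 10 measured genes of the list of extra-embryonic ectoderm, which holds Cdx2, summed to between 4.81 and 209 per 1000000 in P at E7.5, against 0.07 to 185 per 1000000 in A, with medians of 88.5 and 9.90, and their part in the Pou5f1 difference was not tested. Dnmt3b was lower (-1.35), with 71.3 ± 34.1 FPKM in P (SD, n = 4) and 189 ± 71.6 FPKM in A (n = 6). Nr6a1, the gene of the repressor GCNF, averaged 14.9 ± 3.18 FPKM in P and 16.8 ± 7.71 FPKM in A at E7.5. In endoderm over the mean of stages, where 10.8% of all genes were called higher and 57.9% lower, 1 of 18 was higher, the methyl-DNA-binding Mbd2 (1.05), and 12 lower, with Dnmt3b (-1.86), Dnmt3a (-1.84) and the histone methyltransferase gene Ehmt1 (-0.93) at the smallest p-values among the lower ones. Nr6a1 was also lower in endoderm (-0.90 ± 0.16), the same sign as Pou5f1. In mesoderm minus P over the mean of stages, where 39.6% of all genes were called lower, 5 of 16 were lower, Cdx2 (-2.26), Dnmt3b (-1.0), Dnmt3a (-0.54), Rarg, a retinoic acid receptor gene (-0.52), and Nr6a1 (-0.40), and none higher.

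Primordial germ cells form in the most posterior part of the embryo and keep Pou5f1. Of 10 of their genes, 7 passed the filter, and in P minus A at E7.5 Ifitm1 (2.69), Tfap2c (0.74) and Ifitm3 (0.49) were higher and the receptor gene Kit lower (-1.11), beside 10.7% of all genes higher and 3.45% lower. Ifitm1 was higher in mesoderm than in P as well (1.07 over the mean of stages), where Pou5f1 was lower, and Ifitm3 was lower (-1.22), beside 3.95% of all genes higher and 39.6% lower.

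The genes whose levels were most like those of Pou5f1 were found over 32 points, the means of each stage and region on rescaled libraries, among 7742 genes with a mean of at least 5. The points share embryos and libraries, so the correlations describe the tables and carry no test. Gng3, a G protein gamma subunit gene, had the highest Pearson r, 0.944, and also the highest rank by Spearman's rho. After it came Snrpn (0.911), Prps1, an enzyme of nucleotide synthesis (0.900), Nup43, a nucleoporin gene (0.881), Thyn1 (0.876) and Ahsa1, a cochaperone of HSP90 (0.874). The median r over the 7742 genes was 0.365, and 127 of them, 1.64%, were above 0.8. Gng3 averaged 13.3 ± 0.4 FPKM in mesoderm, 3.9 ± 0.9 in endoderm, 36.6 ± 11.4 in P and 74.0 ± 42.1 in A at E7.5, so that its order of A and P there was the reverse of that of Pou5f1.

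The least alike were Akap2 (-0.889), Col4a1, a basement membrane collagen gene (-0.860), Tmprss2, a membrane serine protease gene (-0.855), and the imprinted H19 (-0.849). Of the known partners Trim28, a corepressor, was close, with 0.852 and rank 24, and Sox2 had 0.619. Nr6a1 had 0.447, Pou3f1 0.437 and Nanog -0.15. On FPKM as deposited these were 0.860, 0.519 and 0.522, so the sign for Nanog depends on the scaling.

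**Figure D5:**
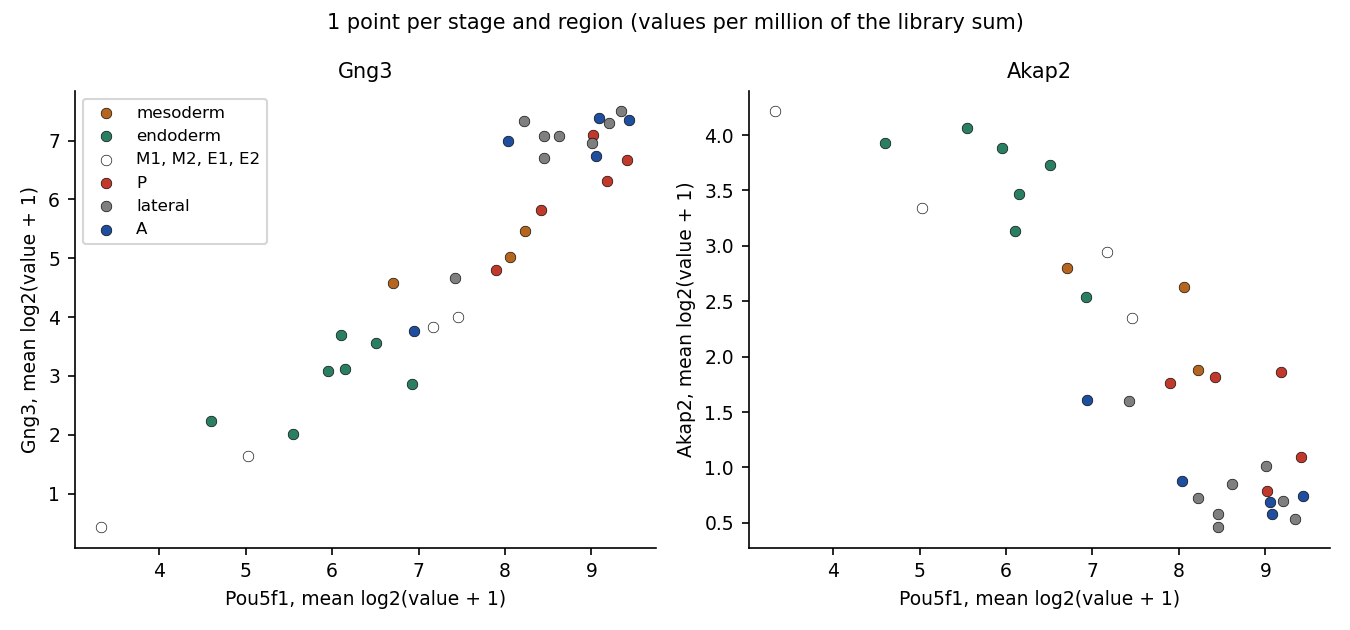
Mean log2(value + 1) of Gng3 (left) and Akap2 (right) against Pou5f1, with values per 1000000 of the library sum and 1 point per stage and region, coloured by germ layer. The 32 points lie along an ascending band for Gng3 (r = 0.944) and a descending one for Akap2 (r = -0.889).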

How the data were processed

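Geo-seq libraries were measured as FPKM by the authors, with TopHat2 2.0.8b, Cufflinks 2.1.1 and the mm10 genome named in the submitters' processing notes. Read counts, strand setting and exact depth are not given in the sources used here, so no count model was run and no counting interval can be given. Columns were matched to samples by their names. Of 586 samples, 473 had a column and 113 did not, and 111 columns that match no label were not used. By its labels embryo 6 is E6.5, although its table has E6.0 in the name.

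The embryo was the replicate. Differences of log2(FPKM + 1) were taken within an embryo and section, averaged over sections, and tested with limma 3.58.1 (trend, robust) in R 4.3.3 over all genes with a mean of at least 1 FPKM in at least 1 stage, with Benjamini-Hochberg adjustment and a threshold of 0.05. Fold changes on this scale understate changes of low genes. Stages were compared on libraries rescaled to a sum of 1000000. Exact permutation tests over embryos, two-sided, were added for Pou5f1. With 2 embryos the sign-flip form cannot give a p under 0.5. Slopes needed at least 5 sections. P and A of the same embryo deviated together, with correlations of 0.660 to 0.889 at E6.5 and 0.375 to 0.748 at E7.5, and the embryo number marks the same animal, so the difference within the embryo is the main fit. The fit was tested on simulated data.

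Named genes are Pou5f1, from each list the members (at most 4) with the smallest p-values of a contrast, all passing members where 5 or fewer pass, 8 reference genes, and the 6 most and 4 least like Pou5f1 over stage and region means; others, such as the genes lower than Pou5f1 in endoderm, were chosen after their values were seen. The gene and the lists were chosen with earlier results of these data known. A gene of the pluripotency list is not reported here and is left out of its counts and sums. Alternatives were other pseudocounts, filters, scalings, fits and libraries, and each embryo left out in turn.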

Additional observations from a re-analysis of the deposited data

Results flagged for a closer look

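The level of Pou5f1 in P of E7.5 embryo 4, 8.84 on the log2 scale of rescaled libraries, lay apart from the other 3 embryos, which lay between 9.26 and 9.34. Chance flags about 1 in 20 such groups, and 9 groups of embryos were examined. The posterior minus anterior difference of Pou5f1 differed between E7.5 and E6.5 by 1.04, tested as a change between stages. The endoderm minus epiblast difference likewise differed between E7.5 and E6.5, by 1.83, beside a median change of 0.78 over all genes. It rests on 7 sections per embryo at E6.5 and 3 at E7.5.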

How the results depend on the processing

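Across the comparisons of Pou5f1, 888 values stayed the same under another setting, 36 lost a call and 11 gained one. Another 35 changed sign and 2 moved without a test. Staying the same means the same direction and side of the threshold or, where no test was left, a value near the main one. The cause was not tested unless the setting itself gives it. Depth limits low values: 1 read of Pou5f1 is worth about 0.26 FPKM in the median library. Small groups of 2 embryos limit every E5.5, E6.0 and E7.0 result. They also limit every endoderm and mesoderm result at E6.5 and E7.5. Changes of sign were all in differences that were not called.

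The main fit holds the embryo as a replicate block. With no replicate block the values stayed and their spread grew, and these calls were lost: P minus A of 1.14 at E5.5 (adjusted p = 0.889) and 0.97 at E7.5 (0.686) with its change of 1.04 (1.0), endoderm minus epiblast of -2.74 at E7.5 (0.089) with its change of 1.83 (0.539), mesoderm minus P of -1.35 at E7.0 (1.0) and mesoderm minus endoderm of 1.52 at E7.5 (0.0813), by limma. For P minus A at E7.5 the number of genes called over all genes was 1601 with the block and 395 without it, 995 with the stage fitted alone, 164 with only the deeper tables and 547 with only the shallower ones.

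A pseudocount of 0.1 gave 1.05 for the change in P minus A (limma, adjusted p = 0.0552), and a pseudocount of 5 changed no call. With no filter on low genes, which adds genes to the adjustment, calls were lost for the change in P minus A of 1.04 (0.0715), the change in endoderm minus epiblast of 1.83 (0.0557), mesoderm minus P of -1.35 at E7.0 (0.174), MP minus MA of 1.26 (0.742) and the slope of A of 2.35 at E5.5 (0.0691). With the stage fitted alone, P minus A of 1.14 at E5.5 (0.320) and the slope of A of 2.35 at E5.5 (0.879) were lost, and EP minus EA of 0.89 at E7.5 was gained (1.12e-04). With only the stages compared in the fit, the difference of 2.12 in A between E6.0 and E5.5 was lost (0.0844).

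With libraries at an equal sum the change in endoderm minus epiblast was 1.35, and slopes became -0.14 in P at E7.0, -0.18 in P at E7.5 and -0.060 in A at E6.5. With an equal median these 3 slopes were -0.0022, -0.088 and -0.29, the slope of A at E5.5 was 1.90 and lost (0.0539), the level of A at E7.5 minus E6.5 was -1.36 and gained (0.0116), the level of P at E7.5 minus E6.5 was -0.23, and levels of endoderm above E6.5 were gained at E7.0 (1.54, adjusted p = 0.02) and E7.5 (1.27, 0.0295), by limma. On FPKM as deposited the level of A at E7.0 minus E6.5 was -0.061 and the level of P at E7.5 minus E6.5 was -0.25. With the median over sections MP minus MA was 1.19 (0.0534), the level of A at E6.0 minus E5.5 was 1.27 (0.101) and the level of P at E6.5 minus E6.0 was -0.059.

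Without libraries under 5000 genes the slope at E5.5 was 2.26 in P and called (limma, adjusted p = 0.0039), and 0.85 in A and lost (0.387). The next 3 choices were made after seeing the data. Without the 2 libraries that stand apart, P minus A at E6.0 was 0.028, the slope of A at E5.5 was 0.85 and the level of P at E6.5 minus E6.0 was -0.12. With only the deeper tables of E6.5 and E7.5, which leave 1 E7.5 embryo with P, P minus A at E7.5 was 0.78 (1.0), its change 0.82 (1.0), the change in the slope of P 0.93 and the level of A at E6.5 minus E6.0 -0.16. With only the shallower ones these were 1.03 (0.0578) for P minus A at E7.5 and 1.17 (0.538) for its change, with -0.076 for the slope of P at E7.5, -0.012 for the level of A at E7.0 minus E6.5 and -0.24 for the level of P at E7.5 minus E6.5. Without the 4 libraries of E7.5 in which 1 gene holds over 50% of the sum, no call changed.

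Leaving out each embryo in turn gave P minus A between 0.49 and 1.80 at E5.5 and between -1.54 and -0.059 at E6.0, and its change between 0.91 and 1.16. Mesoderm minus endoderm at E7.5 ran between 1.45 and 1.6, EP minus EA between 0.021 and 2.19 at E6.5 and between -0.067 and 0.44 at E7.0, and MP minus MA between 0.84 and 1.67. Slopes of P ran between -0.45 and 2.26 at E5.5, -0.35 and 0.58 at E7.0, and from -0.076 to 0.48 at E7.5. Slopes of A ran between 0.85 and 3.86 at E5.5 and between -0.068 and 0.14 at E6.5. Slopes of mesoderm ran between -1.53 and 0.59 at E7.0 and between -1.43 and -0.37 over the mean of stages. Levels of A ran between 1.82 and 2.42 for E6.0 minus E5.5, -0.28 and 0.32 for E6.5 minus E6.0, and -1.26 and -0.89 for E7.5 minus E6.5. Levels of P ran between -0.41 and 1.44 for E6.0 minus E5.5, -0.32 and 1.53 for E6.5 minus E6.0, -0.047 and 0.32 for E7.5 minus E6.5, and -0.47 and 0.0038 for E7.5 minus E7.0. Levels of endoderm ran between -0.11 and 1.26 for E7.5 minus E6.5 and between -1.30 and 0.39 for E7.5 minus E7.0.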
